A study of Mus musculus with 3 samples.

Results

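Regulatory T cells are CD4 T cells that restrain other immune cells, and the 8 genes described here, Foxp3, Ikzf2, Ikzf4, Nrn1, Izumo1r, Gpr83, Lrrc32 and Nt5e, are known for high expression in them. The genes were chosen by symbol, all 8 were found among the 17796 genes of the deposited table, and all 8 had a mean of at least 1 CPM (reads per gene scaled to a total of 1000000 per library), as did 13750 genes in all. The 3 libraries, 1 for each group, held polyadenylated RNA from spleen T cells of C57BL/6 mice. The Old + Fumarate library came from mice labelled 24 months old and given fumarate, a metabolite of the citric acid cycle, at 10 mg/kg 3 times a week for 2 months. The Old vehicle library came from mice of the same stated age given vehicle, and the Young library from mice aged 2 months, also labelled vehicle. All cells were cultured for 3 days on plate-bound antibodies against CD3 and CD28 (2 and 5 ug/ml) with interleukin 2 at 100 IU/ml. The labels name T cells and no sort for CD4 or regulatory cells, and they do not say how many mice gave each library. The differences below therefore have no replicates behind them and carry no p-value.

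Foxp3 is the transcription factor that defines the lineage, and it binds DNA together with partners that include the Ikaros family members Helios (Ikzf2) and Eos (Ikzf4). At the cell surface, GARP (Lrrc32) holds latent TGF-beta, and CD73 (Nt5e) makes adenosine, which dampens T cell responses through its receptors. Neuritin (Nrn1), folate receptor 4 (Izumo1r) and the receptor Gpr83 mark regulatory cells, and the first pair also mark anergic CD4 T cells, which have become unresponsive after stimulation.

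The 8 genes lay on 6 chromosomes of mm10. Foxp3 was at chrX:7573644-7595245, and Gpr83 and Izumo1r were neighbours on chromosome 9 (14860210 to 14870789 and 14885814 to 14903949), separated by 15024 bases with no other listed gene between them. RefSeq promoter windows (build GRCm38.p6, 250 bases before to 50 after a gene start, 32851 windows in all) matched 4 of the 8 genes: Foxp3, Gpr83, Izumo1r and Nt5e. The sequences shown are those of Foxp3, which has 2 such windows, and of the neighbours Gpr83 and Izumo1r, whose values differed between the libraries in different ways. Capitals mark matches, on either strand, to 7 motifs. The NFAT core was searched as GGAAA and the AP-1 motif as TGANTCA. The STAT5 motif was searched as TTCNNNGAA and the RUNX core as TGTGGT. The forkhead core was searched as GTAAACA, the ETS core as CCGGAAG and the TATA box as TATAAA.
Foxp3, chrX:7579426-7579725, plus strand: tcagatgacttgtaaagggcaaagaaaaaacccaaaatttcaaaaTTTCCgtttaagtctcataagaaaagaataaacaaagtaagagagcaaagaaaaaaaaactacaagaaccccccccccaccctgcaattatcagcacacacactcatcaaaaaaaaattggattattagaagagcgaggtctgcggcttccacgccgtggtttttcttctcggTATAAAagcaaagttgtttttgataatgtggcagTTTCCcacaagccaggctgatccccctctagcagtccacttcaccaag
Foxp3, chrX:7580233-7580532, plus strand: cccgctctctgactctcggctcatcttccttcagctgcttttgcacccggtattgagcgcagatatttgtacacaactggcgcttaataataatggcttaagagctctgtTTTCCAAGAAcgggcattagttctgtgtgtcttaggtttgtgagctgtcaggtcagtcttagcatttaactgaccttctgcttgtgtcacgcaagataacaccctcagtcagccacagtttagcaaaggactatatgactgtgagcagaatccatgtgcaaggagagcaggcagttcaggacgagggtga
Gpr83, chr9:14859960-14860259, plus strand: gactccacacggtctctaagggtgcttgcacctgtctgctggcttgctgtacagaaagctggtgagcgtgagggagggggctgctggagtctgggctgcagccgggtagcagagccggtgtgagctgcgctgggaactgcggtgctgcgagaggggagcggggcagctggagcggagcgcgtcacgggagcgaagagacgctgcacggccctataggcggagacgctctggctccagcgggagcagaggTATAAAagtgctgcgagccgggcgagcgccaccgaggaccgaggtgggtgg
Izumo1r, chr9:14903718-14904017, minus strand: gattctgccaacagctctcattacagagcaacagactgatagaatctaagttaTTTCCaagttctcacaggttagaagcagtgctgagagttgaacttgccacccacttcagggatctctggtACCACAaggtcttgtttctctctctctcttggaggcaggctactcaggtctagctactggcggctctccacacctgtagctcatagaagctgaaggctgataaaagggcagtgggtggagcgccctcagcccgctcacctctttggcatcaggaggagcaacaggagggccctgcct

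The first Foxp3 window held 2 NFAT cores and a TATA box at −32 relative to the start. The second held an NFAT core, at −140 relative to the start, that overlapped a STAT5 match at −139. The Izumo1r window held 1 NFAT core and 1 RUNX core, the Gpr83 window held a TATA box at the start itself, and the Nt5e window held none of the 7 motifs. Of all windows, 61.3% held the NFAT core, 16.8% the RUNX core, 13.6% the TATA box and 8.30% the STAT5 motif, so these matches are common letters and describe the windows only. GC content was 40.7% and 47.7% in the Foxp3 windows, 52.3% for Izumo1r, 67.0% for Gpr83 and 71.0% for Nt5e, against a median of 52.7% over all windows.

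Depth was estimated at 13.9 M reads for Old + Fumarate, 17.3 M for Old vehicle and 41.0 M for Young. All 18 T cell identity genes were measured in each library, with summed levels of 4468, 3904 and 4818 CPM in Old + Fumarate, Old vehicle and Young. Markers of other blood cells differed far more between these libraries. The 10 megakaryocyte and platelet markers summed to 180 CPM in Old + Fumarate, 1288 CPM in Old vehicle and 11.6 CPM in Young. Of 10 listed basophil and mast cell markers, the 8 that had values summed to 78.4, 437 and 2.61 CPM. Erythroid markers (9 genes) summed to 7.43, 143 and 2.54 CPM in that order, macrophage and monocyte markers (9 genes) to 35.2, 58.6 and 3.98 CPM, and B cell markers (12 genes) to 73.8, 231 and 143 CPM. Ccr2, at 29.8, 25.1 and 0.957 CPM, made up most of the macrophage sum in Old + Fumarate, whereas Lyz2 was at 0.722, 9.38 and 0.0488 CPM. Ighm made up most of the B cell sum, at 54.1, 212 and 135 CPM, whereas Ebf1 was at 9.31, 5.91 and 0.927 CPM. Of 10 listed NK cell markers, the 8 that had values summed to 93.8, 99.4 and 32.4 CPM. Eomes, at 47.4, 26.9 and 29.7 CPM, made up most of that sum in Young. Gzma and Eomes were the highest of these markers in Old vehicle. Of 8 listed plasmacytoid dendritic cell markers, the 6 that had values summed to 295, 242 and 512 CPM. Irf8 made up most of that sum in every library, at 238, 146 and 428 CPM. Whether Eomes, Gzma and Irf8 came from such cells was not tested. Csf1r, the macrophage growth factor receptor, was at less than 1 read in Old + Fumarate, at 3.74 CPM in Old vehicle and at less than 1 read in Young. In bulk RNA, fewer cells of a type and less RNA per cell cannot be told apart.

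**Figure D1:**
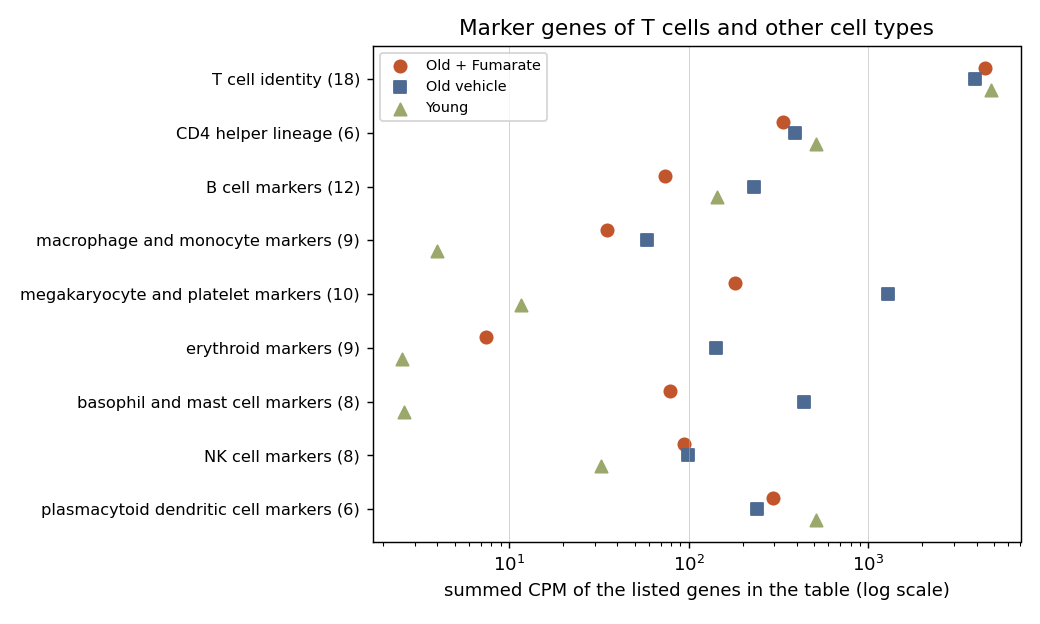
Summed CPM (log axis) of the marker genes of each cell type. Brackets give the number of listed genes that had values, and each symbol is 1 library. T cell identity genes lie between 3904 and 4818 CPM, while megakaryocyte and platelet markers lie at 180 CPM in Old + Fumarate, 1288 CPM in Old vehicle and 11.6 CPM in Young.

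The 8 genes did not move as a block. In 5 of them (Foxp3, Ikzf2, Gpr83, Lrrc32 and Nt5e) the level was highest in Old vehicle, intermediate in Old + Fumarate and lowest in Young, an order that 26.5% of all 13750 genes had. All 10 megakaryocyte and platelet markers, all 8 basophil and mast cell markers and 4 of 7 measured erythroid markers had this order too, and their part in the result was not tested. Of 25 measured further genes of the regulatory T cell signature, listed below, 12 had it. Ikzf4 was highest in Old + Fumarate, Izumo1r was lowest there, and Nrn1 was highest in Young. Differences below are log2 ratios of CPM with 95% intervals that cover counting error alone. A gene counts as 2-fold different when its log2 ratio of CPM + 1, which shrinks the ratios of low genes, is at least 1 in size.

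**Figure D2:**
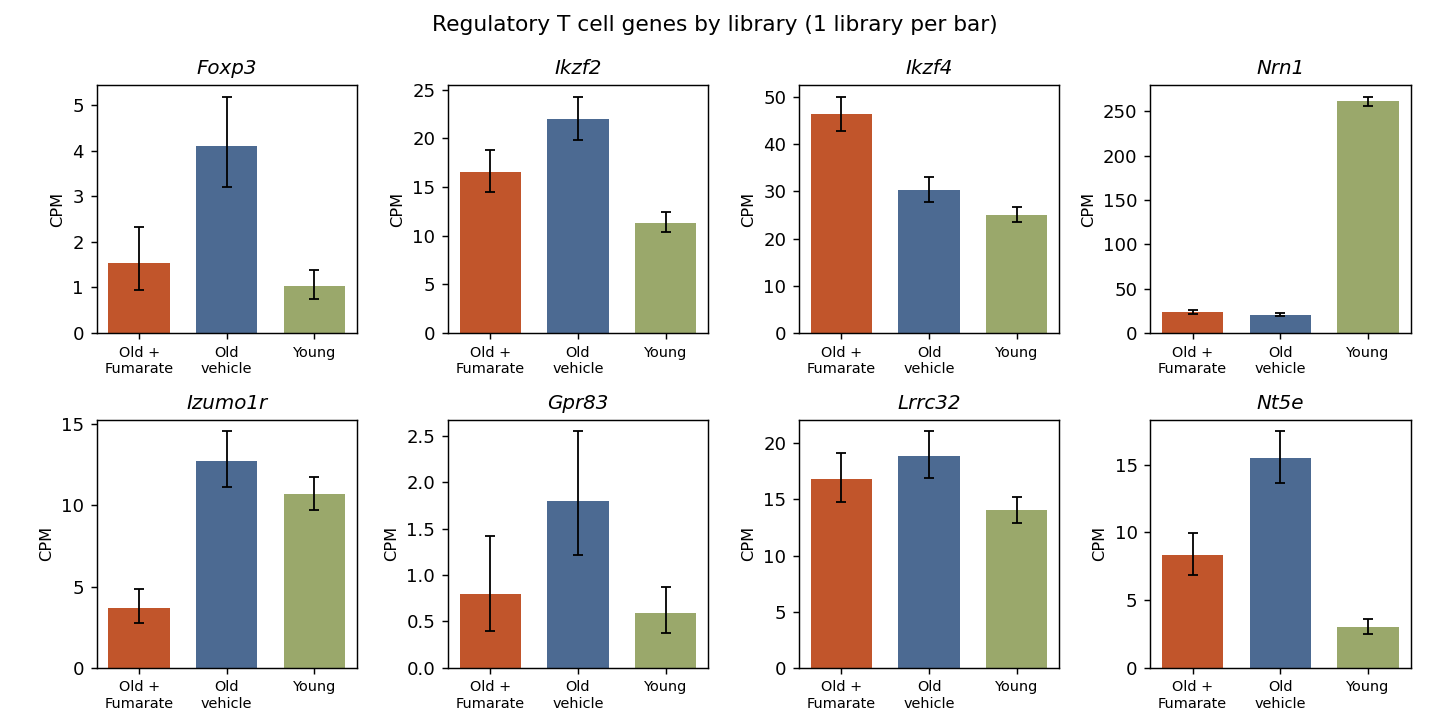
Level of each of the 8 genes (CPM, vertical axis from 0, own scale per gene) in the 3 libraries; bars are single libraries and whiskers are 95% Poisson intervals for counting error. Nrn1 stands at 262 CPM in Young against 23.5 and 20.9 CPM in Old + Fumarate and Old vehicle, Ikzf4 is highest in Old + Fumarate, and Foxp3 and Nt5e are highest in Old vehicle.

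Foxp3 was at 1.54 CPM in Old + Fumarate, 4.11 CPM in Old vehicle and 1.04 CPM in Young, which are about 21, 71 and 42 reads. These few reads give wide intervals. The Old vehicle library stood above the others, and Old + Fumarate and Young were not separable by counting error. The log2 ratio was −1.41 (interval −2.22 to −0.72) for Old + Fumarate over Old vehicle, 1.99 (1.43 to 2.59) for Old vehicle over Young, and 0.57 (−0.26 to 1.35) for Old + Fumarate over Young. With CPM + 1 the first of these was −1.01, just past the 2-fold limit, and it fell short of that limit at −0.98 with scaling by a trimmed mean of log ratios (TMM) or by median ratios. The second was 1.33, or 0.59 with a constant of 5 CPM in place of 1.

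The Foxp3 reads were not all separable from those of other genes at the locus. Its exons share 590 bases with those of Ccdc22 on the opposite strand, which was at 26.8 CPM in Old + Fumarate, 32.1 CPM in Old vehicle and 22.1 CPM in Young. They also share 373 bases with Gm36995, a transcript on the opposite strand at 1.79, 4.57 and 2.41 CPM, 266 with Ppp1r3f on the opposite strand at 2.91, 1.38 and 2.89 CPM, and 853 with Flicr, a long noncoding RNA on the same strand at 0.384, 0.174 and 0.514 CPM. Ccdc22 and Gm36995 were highest in Old vehicle, as Foxp3 was, whereas Ppp1r3f and Flicr were lowest there. Whether counting used strand is not given in the sources used here, and Foxp3's estimated reads were not whole numbers (21.3, 70.9 and 42.4 in Old + Fumarate, Old vehicle and Young), so its level is uncertain.

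Helios and Eos, the Ikaros family partners, differed in the library where they were highest. Ikzf2 was at 16.5 CPM in Old + Fumarate, 22.0 CPM in Old vehicle and 11.3 CPM in Young. Its log2 ratio was −0.41 (−0.65 to −0.17) for Old + Fumarate over Old vehicle and 0.95 (0.75 to 1.15) for Old vehicle over Young. Ikzf4 was at 46.3 CPM in Old + Fumarate, 30.3 CPM in Old vehicle and 25.1 CPM in Young, so the fumarate library stood above the other pair. Its ratio was 0.61 (0.44 to 0.78) for Old + Fumarate over Old vehicle, where 279 of the 13750 genes had a higher one by CPM + 1, and 0.88 (0.74 to 1.03) for Old + Fumarate over Young. The other Ikaros family genes did not share one pattern either: Ikzf1, which encodes Ikaros, was at 284, 248 and 405 CPM in Old + Fumarate, Old vehicle and Young, and Ikzf3, which encodes Aiolos, at 34.1, 39.2 and 23.4 CPM. None of the 5 family genes was 2-fold different in any comparison by CPM + 1, but 2 passed it for Old vehicle over Young (Ikzf2, at 1.19, and Ikzf3) when each library was scaled to the geometric mean of the 18 T cell identity genes. With scaling to Cd4, 2 passed it for Old vehicle over Young (Ikzf2, at 1.27, and Ikzf3) and 1 for Old + Fumarate over Young (Ikzf4, at 1.25). These scalings raised the Old vehicle over Young ratios of all genes by 0.32 and 0.40 before the constant was added. Without them, the shares of all genes higher and lower were 10.1% and 2.01% for Old vehicle over Young. They were 5.01% and 2.35% for Old + Fumarate over Young, and 0.291% and 6.57% for Old + Fumarate over Old vehicle. Of the other FOXP genes, Foxp1 was at 137, 150 and 179 CPM in Old + Fumarate, Old vehicle and Young, and Foxp4 at 90.7, 87.1 and 93.1 CPM.

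Nrn1 had the lowest log2 ratio of CPM + 1 of all 13750 genes in both comparisons with Young. It was at 23.5 CPM in Old + Fumarate, 20.9 CPM in Old vehicle and 262 CPM in Young (326, 360 and 10722 reads). The aged libraries were alike and far below the Young one: the log2 ratio was −3.47 (−3.64 to −3.32) for Old + Fumarate over Young and −3.65 (−3.80 to −3.50) for Old vehicle over Young, while that of Old + Fumarate over Old vehicle was 0.17 (−0.05 to 0.39). The level was 11.1-fold lower in Old + Fumarate and 12.5-fold lower in Old vehicle than in Young. The comparisons with Young share that library, so they are not separate observations. Nrn1 exons share 501 bases with Fars2 on the opposite strand, which was at 14.1, 14.7 and 16.0 CPM in Old + Fumarate, Old vehicle and Young. The pattern had no close match among 9635 other genes with a mean of at least 5 CPM. Distance was taken over the pair of log2 ratios of CPM + 1 (Old vehicle over Young, Old + Fumarate over Old vehicle). The nearest genes were Ifi206, St6gal1, Zfp395 and Nsg2, at distances of 0.88 to 1.02. St6gal1, a sialyltransferase, was at 27.9 CPM in Old + Fumarate, 14.8 CPM in Old vehicle and 129 CPM in Young. By the same measure over these 3 libraries, the genes nearest to Foxp3 were Tmem63a, Frrs1, Rab32 and Man2a2, at distances of 0.04 to 0.07. The constant of 1 CPM shrank the Foxp3 pair to 1.33 and −1.01, from 1.99 and −1.41 by CPM. These distances therefore hold for CPM + 1 only.

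Izumo1r, named above with Nrn1 as also marking anergic cells, was low in the fumarate library alone. It was at 3.68 CPM in Old + Fumarate, 12.7 CPM in Old vehicle and 10.7 CPM in Young, which are 51, 220 and 438 reads. The log2 ratio was −1.79 (−2.26 to −1.35) for Old + Fumarate over Old vehicle and −1.54 (−1.99 to −1.12) for Old + Fumarate over Young, and 0.25 (0.01 to 0.49) for Old vehicle over Young. Of 13750 genes, 150 had a lower ratio of CPM + 1 for Old + Fumarate over Young. That ratio of −1.32 fell short of 2-fold with scaling to Cd4 (−0.97) or a constant of 5 CPM (−0.85). The neighbour Gpr83 was at 0.794 CPM in Old + Fumarate, 1.80 CPM in Old vehicle and 0.586 CPM in Young, which are 11, 31 and 24 reads. Its intervals were wide, with log2 ratios of −1.18 (−2.32 to −0.15) for Old + Fumarate over Old vehicle, 1.62 (0.80 to 2.45) for Old vehicle over Young and 0.44 (−0.74 to 1.52) for Old + Fumarate over Young. Izumo1r and Gpr83 thus shared a low value in Old + Fumarate relative to Old vehicle, but in Young Izumo1r was near its Old vehicle level and Gpr83 was not.

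Nt5e had the largest ratio upward with age among the 8 genes. It was at 8.30 CPM in Old + Fumarate, 15.5 CPM in Old vehicle and 3.00 CPM in Young. All 3 libraries were separated by counting error, with log2 ratios of −0.90 (−1.23 to −0.58) for Old + Fumarate over Old vehicle, 2.37 (2.05 to 2.69) for Old vehicle over Young and 1.47 (1.09 to 1.85) for Old + Fumarate over Young. The last was 1.22 with CPM + 1, and 0.73 with a constant of 5 CPM. By the largest of the 3 ratios of each gene, Lrrc32 differed least of the 8 genes, at 16.8 CPM in Old + Fumarate, 18.9 CPM in Old vehicle and 14.0 CPM in Young. Its ratio was −0.17 (−0.42 to 0.08) for Old + Fumarate over Old vehicle and 0.43 (0.23 to 0.63) for Old vehicle over Young. GARP is also known from platelets, whose markers differed between these libraries by the sums given above, and their part in the Lrrc32 level was not tested.

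**Figure D3:**
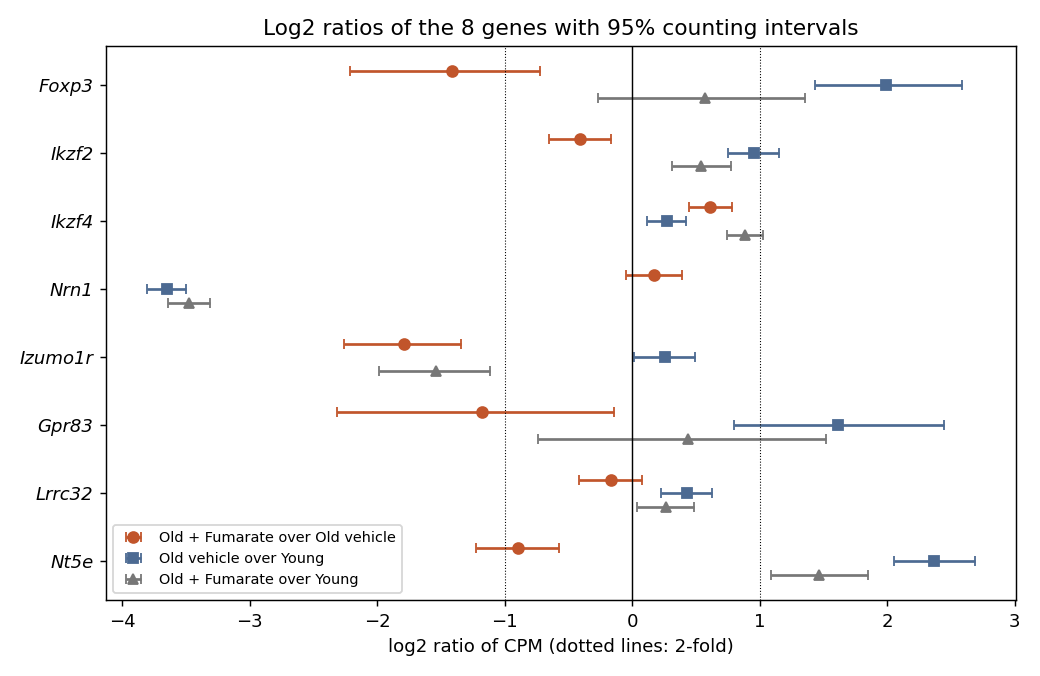
Log2 ratio of CPM for each of the 8 genes in the 3 comparisons, with 95% counting intervals; dotted lines mark 2-fold. Nrn1 lies at −3.65 for Old vehicle over Young and −3.47 for Old + Fumarate over Young, and Izumo1r lies below −1 in both comparisons that have Old + Fumarate on top.

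For Old + Fumarate over Old vehicle, 2 of the 8 genes were 2-fold lower by CPM + 1 (Foxp3 and Izumo1r) and 0 were higher, where 6.57% of all genes were 2-fold lower and 0.291% higher. For Old vehicle over Young, 2 were 2-fold higher (Foxp3 and Nt5e) and 1 lower (Nrn1), where 10.1% of all genes were higher and 2.01% lower. For Old + Fumarate over Young, 1 was higher (Nt5e) and 2 were lower (Nrn1 and Izumo1r), where 5.01% of all genes were higher and 2.35% lower. That comparison leaves out the library with the highest megakaryocyte, erythroid and basophil marker sums. In it, 9 of the 10 megakaryocyte and platelet markers and all 8 basophil and mast cell markers were still 2-fold higher. The part of such cells in these counts was not tested. With 8 genes, each gene is 12.5% of the set, so these shares are coarse. The median log2 ratio of CPM + 1 over all genes was −0.02, 0.03 and 0.00479 in these comparisons.

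Per kilobase of exon (GENCODE M21), Nrn1 had the highest level of the 8 genes in every library, at 10.5 CPM per kb in Old + Fumarate, 9.27 in Old vehicle and 116 in Young, and Foxp3 and Gpr83 had the lowest. In Old + Fumarate the order after Nrn1 was Ikzf4 (7.73 CPM per kb), Lrrc32 (3.59), Izumo1r (1.59), Ikzf2 (1.42), Nt5e (0.965), Foxp3 (0.337) and Gpr83 (0.156). Izumo1r stood next below Nrn1 in the other libraries, at 5.49 CPM per kb in Old vehicle and 4.61 in Young, and its interval overlapped that of Ikzf4 there, at 5.05 and 4.19. Counting intervals of neighbours in the order also overlapped for Izumo1r with Ikzf2 and Foxp3 with Gpr83 in Old + Fumarate, for Ikzf2 with Nt5e in Old vehicle, and for Nt5e with Foxp3 and Foxp3 with Gpr83 in Young. The Ikzf4 span in the table ended further along the chromosome (128669358) than in GENCODE M21 (128645991), so its length may differ from the one the authors used.

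Relative to Cd4, the coreceptor of the helper lineage that holds most regulatory T cells, the order of the libraries was kept for all 8 genes. Cd4 was at 181 CPM in Old + Fumarate, 180 CPM in Old vehicle and 238 CPM in Young, and Cd8a at 218, 187 and 229 CPM. Foxp3 amounted to 0.853 CPM per 100 CPM of Cd4 in Old + Fumarate, 2.28 in Old vehicle and 0.434 in Young. Nt5e amounted to 4.60, 8.59 and 1.26, and Nrn1 to 13.0, 11.6 and 110, in the same libraries. Of 6 CD4 helper lineage genes, 3 were 2-fold lower for Old + Fumarate over Young and 2 for Old vehicle over Young, with none higher in either. Over all genes, 2.35% and 2.01% were lower in these comparisons, and 5.01% and 10.1% higher. Trat1, a T cell receptor adaptor, was at 0.577 CPM in Old + Fumarate, 0.348 CPM in Old vehicle and 12.4 CPM in Young. Tbc1d4, which regulates vesicle traffic, was at 4.04, 12.3 and 10.4 CPM and had the same order of libraries as Izumo1r, as did 12.2% of all 13750 genes. The Tbc1d4 interval for Old vehicle over Young, −0.0072 to 0.48, did not separate that pair of libraries. Zbtb7b, the transcription factor ThPOK, was at 36.2, 41.2 and 57.8 CPM in Old + Fumarate, Old vehicle and Young, and the CD40 ligand gene Cd40lg at 13.4, 10.7 and 50.5 CPM.

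Beyond the 8 genes, 26 further genes of the regulatory T cell signature were listed, of which 25 had a mean of at least 1 CPM. Many of them are also induced by activation in conventional T cells. For Old + Fumarate over Old vehicle, 4 were 2-fold lower and 0 higher (median −0.30). For Old vehicle over Young, 10 were 2-fold higher and 2 lower (median 0.57), and for Old + Fumarate over Young 7 were higher and 2 lower (median 0.48). Over all genes, the shares higher and lower in these 3 comparisons were 0.291% and 6.57%, 10.1% and 2.01%, and 5.01% and 2.35%. Il10, an anti-inflammatory cytokine, was at 13.2 CPM in Old + Fumarate, 43.7 CPM in Old vehicle and 1.83 CPM in Young. Il1rl1, the interleukin 33 receptor, was at 5.77, 34.5 and 0.610 CPM, and Ecm1, an extracellular matrix protein, at 8.73, 49.2 and 3.81 CPM. Both Il1rl1 and Il10 are also known from mast cells and basophils, whose markers summed to 78.4, 437 and 2.61 CPM, and their part in these levels was not tested. Penk, which encodes proenkephalin, was at 173 CPM in Old + Fumarate, 225 CPM in Old vehicle and 25.8 CPM in Young.

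Il2ra, Ctla4 and Tnfrsf18, surface receptors of regulatory T cells, were each highest in a different library. Il2ra, the high-affinity interleukin 2 receptor chain CD25, was at 2086 CPM in Old + Fumarate, 1532 CPM in Old vehicle and 1047 CPM in Young. Ctla4, an inhibitory receptor, was at 103, 172 and 162 CPM, so that it was lowest in Old + Fumarate. Tnfrsf18, the costimulatory receptor GITR, was at 281, 211 and 431 CPM and was highest in Young. Its log2 ratio of CPM + 1 for Old vehicle over Young was −1.03, past 2-fold, and no gene of the list was 2-fold lower there with T cell identity or Cd4 scaling.

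**Figure D4:**
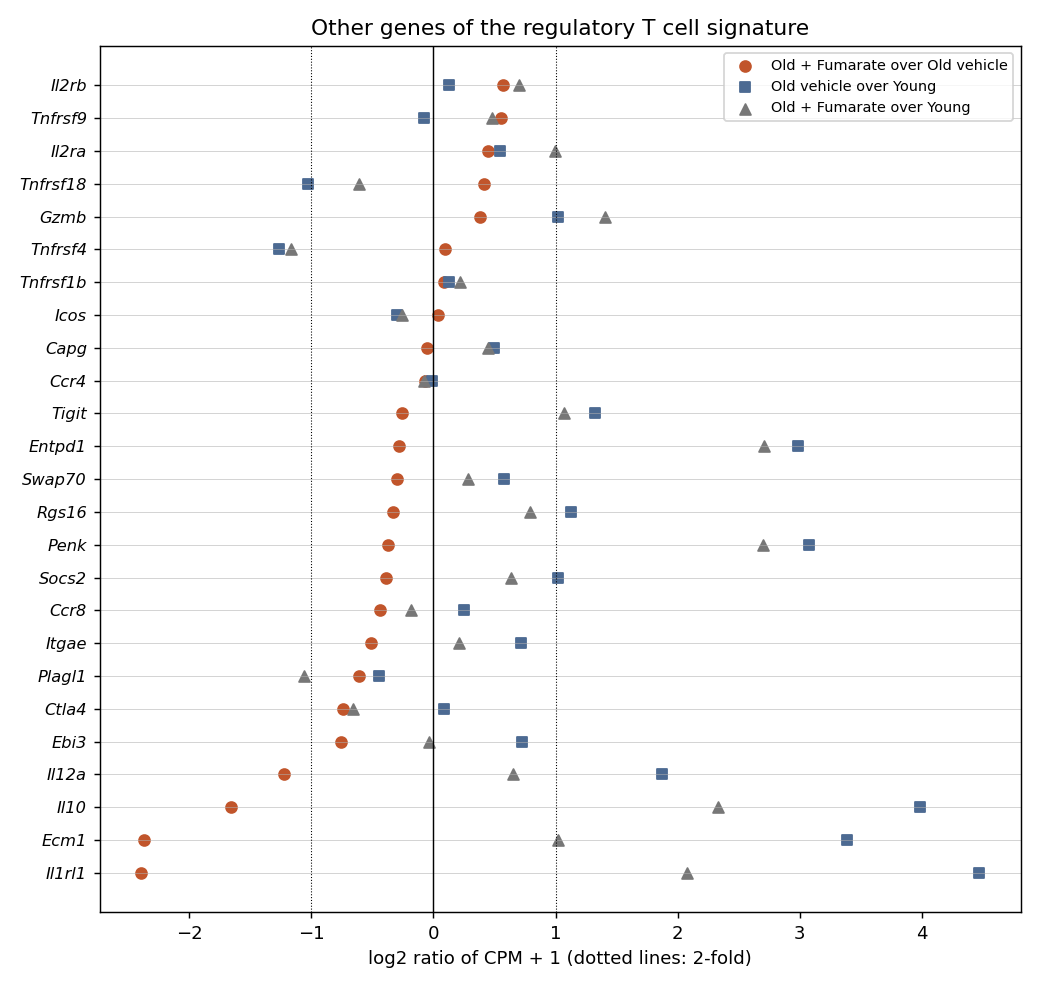
Log2 ratio of CPM + 1 for the 25 further signature genes with a mean of at least 1 CPM in the 3 comparisons, 1 value per comparison; dotted lines mark 2-fold. Il1rl1, Ecm1, Il10 and Il12a lie below −1 for Old + Fumarate over Old vehicle, and Tnfrsf18 and Tnfrsf4 lie below −1 for Old vehicle over Young.

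The pathways around the surface members were then described. CD39 (Entpd1) makes the substrate of CD73 from ATP and ADP, and its gene was at 17.1 CPM in Old + Fumarate, 21.0 CPM in Old vehicle and 1.78 CPM in Young. Its log2 ratio of CPM + 1 was −0.28 for Old + Fumarate over Old vehicle, 2.98 for Old vehicle over Young and 2.70 for Old + Fumarate over Young, so both aged libraries stood above Young. As with Nt5e, counting error separated all 3 libraries, since the interval of the log2 ratio of CPM for Old + Fumarate over Old vehicle ran, for Entpd1, from −0.54 to −0.05. Of 16 measured genes of the adenosine pathway other than Nt5e, 4 were 2-fold higher and 1 lower for Old vehicle over Young, 2 higher and 0 lower for Old + Fumarate over Young, and 0 higher and 1 lower for Old + Fumarate over Old vehicle. The shares of all genes, higher and lower in the same order, were 10.1% and 2.01%, 5.01% and 2.35%, and 0.291% and 6.57%. Adora2b, an adenosine receptor, was at 13.2 CPM in Old + Fumarate, 18.1 CPM in Old vehicle and 6.29 CPM in Young. Adora3, another receptor that is known from mast cells, was at 3.03, 5.68 and 0.0244 CPM, the last being 1 read. Dpp4, the surface protease CD26, which binds adenosine deaminase in human cells, was at 26.1, 16.8 and 51.0 CPM.

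Of 20 measured genes around latent TGF-beta, the cargo of GARP, 4 were 2-fold higher and 1 lower for Old vehicle over Young (median 0.55), 2 higher and 0 lower for Old + Fumarate over Young (median 0.33), and 0 higher and 2 lower for Old + Fumarate over Old vehicle (median −0.16). The shares of all genes, higher and lower in the same order, were 10.1% and 2.01%, 5.01% and 2.35%, and 0.291% and 6.57%. Tgfb1, the main TGF-beta gene of T cells, was at 325 CPM in Old + Fumarate, 446 CPM in Old vehicle and 233 CPM in Young. Ltbp1, which anchors latent TGF-beta in the matrix, was at 4.76, 36.9 and 0.317 CPM, and Ltbp3, of the same family, at 1.66, 6.43 and 1.02 CPM. Tgfb2 was at 5.99 CPM in Old + Fumarate, 10.0 CPM in Old vehicle and 0.415 CPM in Young, and Tgfb3 at 0.794, 0.637 and 2.37 CPM. All of these but Tgfb3 had the library order of the megakaryocyte and platelet markers, as did 26.5% of all genes. The part of such cells in these levels was not tested.

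Of 31 measured genes that regulate Foxp3 or work with it, 0 were 2-fold higher and 1 lower for Old + Fumarate over Old vehicle (median 0.12), 2 higher and 2 lower for Old vehicle over Young (median −0.32), and 0 higher and 1 lower for Old + Fumarate over Young (median −0.12). The shares of all genes, higher and lower in the same order, were 0.291% and 6.57%, 10.1% and 2.01%, and 5.01% and 2.35%. The median for Old vehicle over Young turned to 0.07 with scaling to Cd4. Runx1, which binds DNA with Foxp3 and is also a factor of megakaryocytes, was at 12.7 CPM in Old + Fumarate, 65.1 CPM in Old vehicle and 16.2 CPM in Young. Nr4a3 and Nr4a1, nuclear receptors induced by T cell receptor signals that promote Foxp3 expression, were at 156, 101 and 517 CPM and at 104, 91.6 and 189 CPM, so that Young was highest for both. Nr4a2, the remaining gene of that family, was lowest in Young, at 90.5 CPM in Old + Fumarate, 87.2 CPM in Old vehicle and 55.0 CPM in Young. Gata3, a factor of helper and regulatory T cells and of mast cells, was at 49.2 CPM in Old + Fumarate, 75.1 CPM in Old vehicle and 33.8 CPM in Young.

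Among 18 genes of T cell anergy, 1 was 2-fold higher (Rnf128) and 1 lower (Egr3) for Old vehicle over Young, 1 was higher (Rnf128) and 0 lower for Old + Fumarate over Young, and none passed the limit for Old + Fumarate over Old vehicle. The shares of all genes, higher and lower in the same order, were 10.1% and 2.01%, 5.01% and 2.35%, and 0.291% and 6.57%. Rnf128, the ubiquitin ligase GRAIL, was at 3.54 CPM in Old + Fumarate, 7.12 CPM in Old vehicle and 0.805 CPM in Young. Egr3, a transcription factor induced by T cell receptor signals, was at 24.6, 22.9 and 49.9 CPM. The inhibitory receptor gene Lag3 was at 99.8, 164 and 129 CPM in Old + Fumarate, Old vehicle and Young. Rnf128 was thus above its Young level in both aged libraries, while Nrn1 was below it in both and Izumo1r in Old + Fumarate. By CPM, 7 of the 8 genes, Nt5e among them, were above Young in Old vehicle, and 6, again with Nt5e, in Old + Fumarate. Of all 13750 genes, 26.5% had both aged libraries above Young with Old vehicle highest, and 15.0% with Old + Fumarate highest. A further 12.2% had Old vehicle alone above Young, and 9.29% Old + Fumarate alone.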

How the data were processed

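The deposited values are CPM: per the file headers each column is 1 library, and each sums to 1000000, although the table is named as raw counts. The submitters' processing notes name STAR, Partek and mm10, without versions, roles or an annotation release. Low CPM values are multiples of 1 smallest step per library, and the inverse of that step gave the depths. Within 0.02 reads, 58.5% to 68.2% of genes were whole multiples, as were 6 of the 8 genes described in all libraries, so read counts could not be rebuilt and count models were left out. A value of 0 allows up to 3 reads (0.217, 0.174 and 0.0732 CPM in Old + Fumarate, Old vehicle and Young).

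Ratios used log2(CPM + 1), a 2-fold limit and genes with a mean of at least 1 CPM. The 95% intervals are Clopper-Pearson for ratios of CPM and exact Poisson for levels, on estimated reads rounded to whole numbers; PCR copies mean that they cover no more than counting error. The genes and the 17 gene lists were chosen with earlier results of these data known. Named are the 8 genes, up to 4 genes per list with the largest ratio (7 further genes whatever their values), and the 4 nearest to Foxp3 and to Nrn1, leaving out predicted, receptor segment, mitochondrial, pseudogene and sex-linked names. Ccdc22, Gm36995, Ppp1r3f, Flicr, Fars2, Il12a, Tnfrsf4, Nr4a2 and Eomes were named after their values were seen. Gene positions come from the table, whose ends were reduced by 1 base. The ratios, intervals, depth estimate and TMM were tested on simulated reads. Tools were scipy 1.17.1, pandas 2.3.3 and numpy 2.4.6 under Python 3.11.15, with plots in matplotlib 3.10.9.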

Additional observations from a re-analysis of the deposited data

How the results depend on the processing

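Each group has 1 library, so no library could be left out within a group, and no paired analysis was possible because the groups share no replicates. There were 10 alternatives: TMM (trims of 30% and 5%), median-of-ratios, T cell identity and Cd4 scaling, constants of 0.5 and 5 CPM, no minimum, a minimum of 10 CPM, a 1.5-fold limit and thinning to the smallest depth. Of 168 alternative values of the 24 log2 ratios, 145 moved by less than the counting error and 23 by more, and 1 changed sign (Nrn1 for Old + Fumarate over Old vehicle, −0.00840 with T cell identity scaling). Relative to total scaling, T cell identity scaling shifted Old vehicle over Young by 0.32, and Cd4 scaling shifted it by 0.40. The count of the 8 genes that were 2-fold lower for Old + Fumarate over Old vehicle was 2, and it was 1 with TMM, with median ratios and with a constant of 5, 0 with a minimum of 10 CPM and 4 at 1.5-fold, where 1 was higher. For Old vehicle over Young, 2 were higher, against 4 with Cd4 scaling and at 1.5-fold, 1 with a constant of 5 and 0 with the minimum of 10 CPM, and the count of 1 lower gene was kept under all 10. For Old + Fumarate over Young, 1 was higher, against 2 with Cd4 scaling and at 1.5-fold and 0 with a constant of 5 or the minimum of 10 CPM. The 2 lower there became 1 with Cd4 scaling, a constant of 5 or the minimum of 10 CPM. That minimum tests fewer genes: it leaves out Foxp3, Izumo1r, Gpr83 and Nt5e. Over all genes, counts for Old + Fumarate over Old vehicle ranged from 11 to 296 higher (40 as reported) and 327 to 1545 lower (903). For Old vehicle over Young they ranged from 587 to 2273 higher (1384) and 123 to 926 lower (277), and for Old + Fumarate over Young from 298 to 1439 higher (689) and 142 to 933 lower (323). Of 1014 alternative list counts, 113 moved by more than 1.5 times, and 24 of 456 alternative list medians changed sign. Of the signature genes, 0 were lower for Old vehicle over Young with T cell identity or Cd4 scaling, against 2, and for Old + Fumarate over Young 4 to 12 were higher, against 7. Where no cause is named, the cause was not tested. Depth limits Gpr83 and Foxp3 most, at 11 to 31 and 21 to 71 reads per library.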
